A study of Mus musculus with 6 samples.

Results

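The nuclear genes that encode the subunits of the oxidative phosphorylation machinery were followed in whole mouse ovaries with and without the receptor for follicle-stimulating hormone. Members were all probe sets with a single annotated symbol that starts with Ndufa, Ndufb, Ndufc, Ndufs or Ndufv and a digit, with Uqcr, with Cox4 to Cox8 or with Atp5, together with Sdha to Sdhd, Cyc1 and Cycs. This gave 169 of 45101 probe sets and 83 of 18194 genes, namely 35 of complex I, 4 of complex II, 9 of complex III, cytochrome c, 17 of complex IV and 17 of complex V. A gene was represented by its probe set with the highest mean signal. After the filter on dim signals, 75 of the 83 genes were measured, and these were 32, 4, 9, 1, 12 and 17 in the same order.

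The study compared 3 FORKO samples, from female mice with all variants of the follicle-stimulating hormone receptor deleted, with 3 wild-type (WT) samples. All mice were 8 months old and came from crosses of heterozygotes on the 129T2 svEmsJ background, and both ovaries were pooled for RNA. The title and the genotype field name the FORKO group, whereas other text fields of these samples mention wild-type animals. The labels call the samples biological replicates without saying how many mice each holds, and a p-value here reflects only sample-to-sample spread.

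Each sample was measured on an Affymetrix whole-genome mouse array of its own. The trimmed mean of the deposited signals was 80.6 to 98.4 per array, and all arrays were scaled to the same trimmed mean. Precision is limited by having 3 arrays per group. Values are scaled signals in arbitrary units, given for replicates 1, 2 and 3 of a group, and a change is the FORKO mean less the WT mean of log2(signal + 5.73), a scale that shrinks the changes of dim probe sets. The deleted gene, Fshr, had signals of 99.6, 59.4 and 119 in the WT arrays and 1.20, 11.2 and 11.7 in the FORKO arrays, so the groups did not overlap. Its log2 change was -2.90 ± 0.39 (SE, n = 3 per group; limma adjusted p = 0.0102), in the direction of the genotype labels.

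Oxidative phosphorylation takes place in the inner mitochondrial membrane. Complexes I and II pass electrons from NADH and succinate to ubiquinone, complex III passes them on to cytochrome c, and complex IV to oxygen. Complexes I, III and IV pump protons, and complex V, the ATP synthase, uses the proton gradient to make ATP. Most subunits are encoded in the nucleus and a smaller set in mitochondrial DNA. In the ovary the oocyte depends on mitochondrial ATP, and luteal and theca cells convert cholesterol to pregnenolone inside mitochondria with electrons from NADPH.

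No subunit gene passed the test at an adjusted p of 0.05, but nearly all had lower mean log2 signals in FORKO ovaries. Of the 75 measured genes, 70 had a negative log2 change (93.3%), against 52.6% of the 11199 genes tested. The median change was -0.22 for the members and -0.020 for all genes, and the members ranged from -0.61 (Ndufb3) to 0.43 (Cox6b2). The median standard error of a member's change was 0.16.

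By limma with Benjamini-Hochberg adjustment, 0 of 75 members were called in either direction, whereas 2.14% of all genes were called and 0.839% were called lower. With the replicate number as a block the members' count was again 0, against 3.98% of all genes. At an unadjusted limma p under 0.05, 14 members were lower and 0 were higher, and the share of all genes lower by that rule was 8.16%. With the block 22 members were lower by that rule, against 11.2% of all genes. In 26 members every FORKO array was below every WT array, against 12.0% of all genes, and in 1 member, Cox6b2, every FORKO array was above, against 10.7% of all genes. The members share the same 6 arrays and are therefore not independent of each other. In bulk tissue, fewer cells of a type and less RNA per cell cannot be told apart.

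These counts moved with the scaling. When arrays were scaled to the bacterial hybridisation spikes, the median of all genes became 0.15 and that of the members -0.046, and 48 of 75 members were negative against 30.6% of all genes. By that scaling Uqcr11 and Ndufb10 were the members with all FORKO arrays below WT, and Atp5a1, Sdha and Cox6b2 those with all above. Of all genes, 4.17% had all FORKO arrays below and 19.0% all above by that scaling. Uqcr11 was lower and Cox6b2 higher at an unadjusted limma p under 0.05, against 3.24% of all genes lower and 14.9% higher. The members' median minus that of all genes was between -0.25 and -0.17 over all 17 settings run, the spikes included. Of these, 2, the block and the variance model, leave medians as they are by construction. Settings that only rescale whole arrays (spikes, equal array medians, signals as deposited) shift members and all genes almost alike. The difference could therefore hardly move under them. In each of the 17 settings the medians of complexes I, II, III, IV and V lay below the median of all genes. Rescaling whole arrays could hardly alter that order either.

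**Figure D1:**
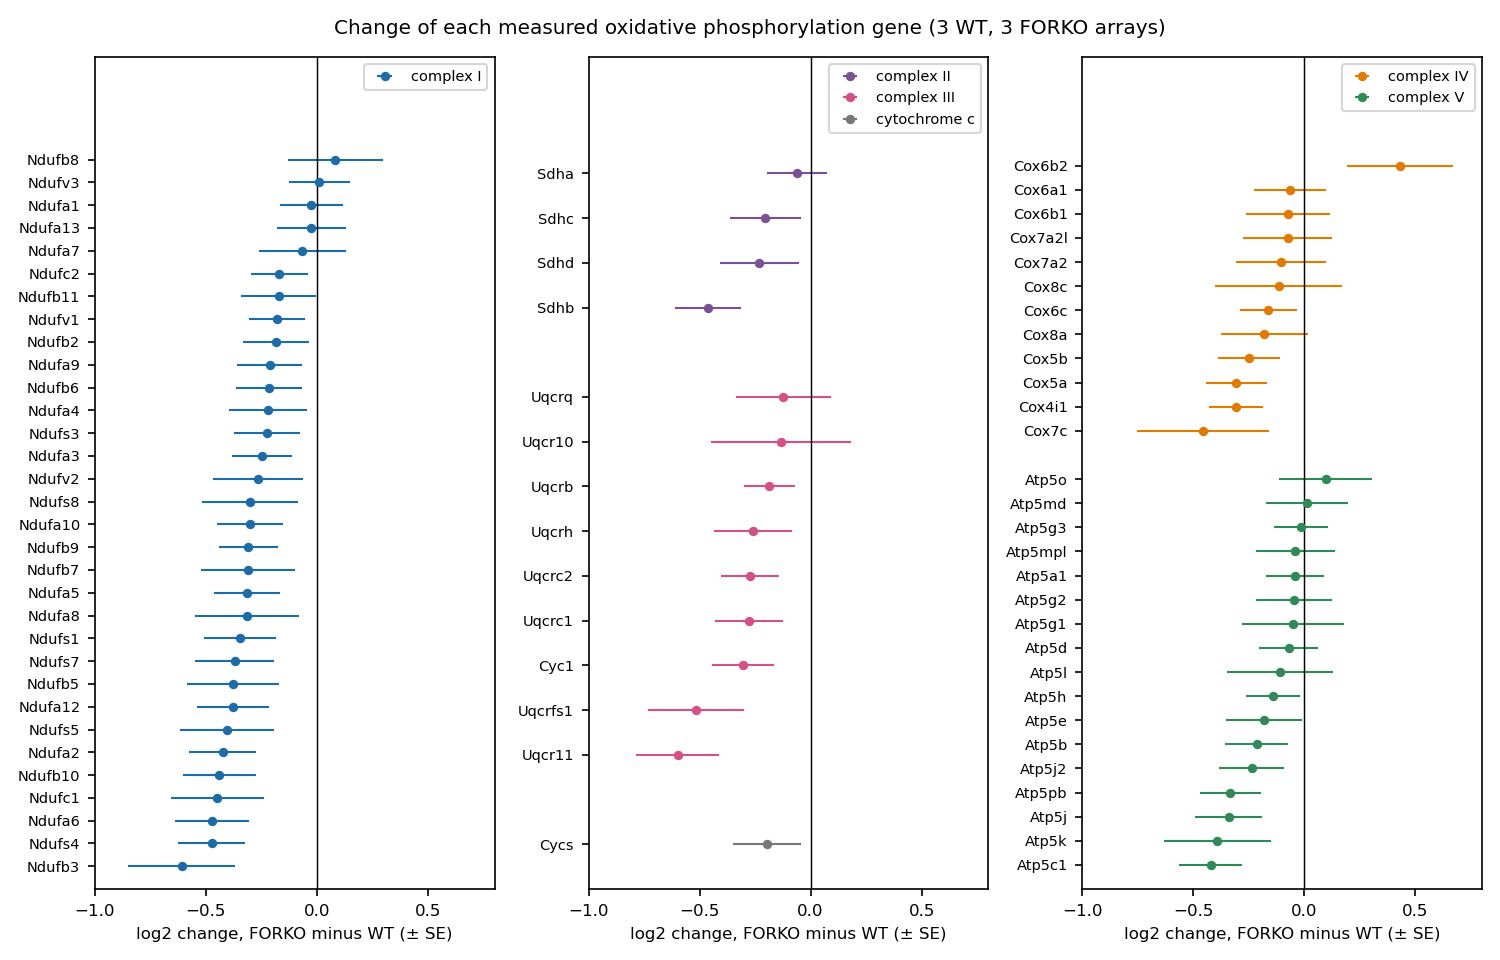
Log2 change, FORKO minus WT, of each of the 75 measured subunit genes (point, with its SE as a bar), 1 row per gene, coloured by complex and sorted within it; the vertical line marks 0. Only 5 points lie right of 0, Cox6b2 farthest at 0.43, and Ndufb3 lies farthest left at -0.61.

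The medians differed in size by complex. Complex I had a median of -0.30, complex III of -0.27, complex II of -0.22, complex IV of -0.14 and complex V of -0.11, and the single cytochrome c gene stood at -0.20. The medians of complexes I, II and III were below that of complex V in all 17 settings, that of complex IV was above it in 2, and the difference between complexes was not tested. Settings that only rescale whole arrays could hardly change the order of the complexes. Groups did not overlap, with FORKO lower, in 14 of 32 genes of complex I, 2 of 4 of complex II, 5 of 9 of complex III, 2 of 12 of complex IV and 3 of 17 of complex V, against 12.0% of all genes. The shares in complexes IV and V were near that of all genes.

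The 3 FORKO arrays did not contribute equally. Taken as the median deviation of the members from the WT mean, FORKO replicates 1 and 2 stood at -0.28 and -0.30 and replicate 3 at -0.085, with the WT arrays at -0.051, 0.058 and 0.0095. Over all genes the 3 FORKO arrays stood at -0.048, -0.0011 and 0.0015. Replicates 1, 2 and 3 lay below the lowest WT array in 54, 53 and 36 of the 75 members, which is 72.0%, 70.7% and 48.0%, against 34.9%, 28.2% and 30.4% of all genes. Without FORKO replicate 3 the groups did not overlap in 43 members, 57.3%, against 30.9% of all genes, and the median was -0.28. With all 6 arrays this held for 27 members, 36.0%, against 22.6% of all genes. Leaving out any other array gave 29 to 33 members, against 29.4% to 35.8% of all genes. Without FORKO replicate 1 or 2 the median was -0.20.

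The complexes differed in how replicate 3 behaved. In complex II it was as low as the others, at -0.20, -0.20 and -0.27 for replicates 1, 2 and 3. In complex I the values were -0.27, -0.36 and -0.11, and in complex III -0.33, -0.36 and -0.17. In complexes IV and V replicate 3 was at the WT level, with -0.30, -0.22 and -0.020 in complex IV and -0.29, -0.19 and 0.00071 in complex V.

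**Figure D2:**
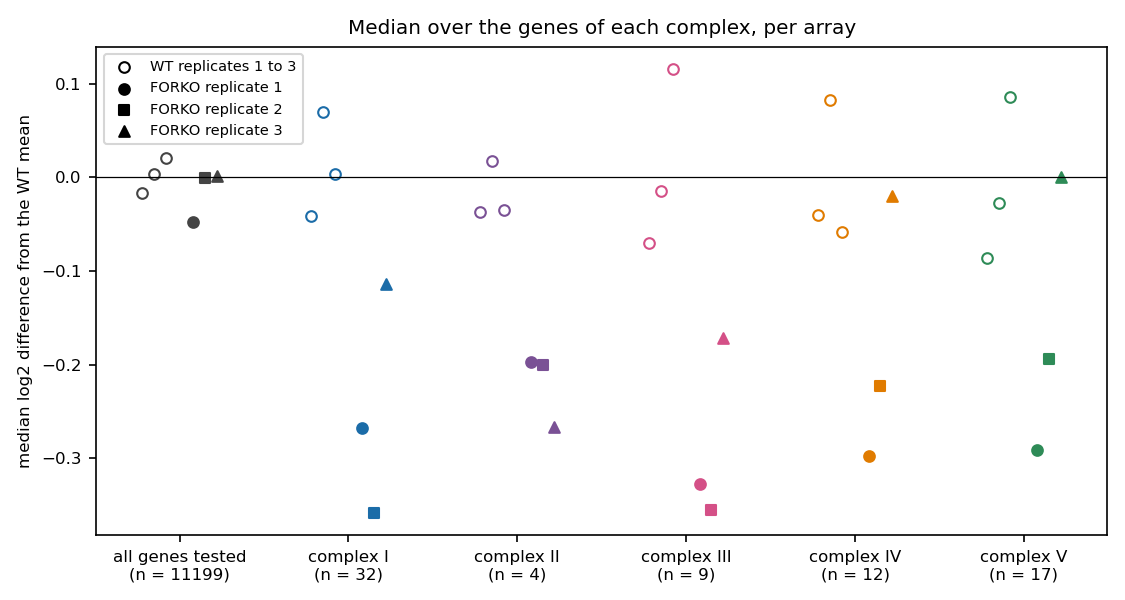
Median difference from the WT mean on the log2 scale (vertical axis) over all genes tested and over the measured subunit genes of each complex, in each WT array (open circles) and FORKO array (filled circle, square and triangle for replicates 1, 2 and 3). FORKO replicates 1 and 2 lie below all WT arrays in complexes I to V, and FORKO replicate 3 lies within the WT range in complexes IV and V.

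Windows of 300 bases around the annotated start are shown for 3 members, Uqcr11, Ndufs4 and Sdhb. They had the lowest unadjusted limma p among measured members with a window, and motifs played no part in the choice. Each window holds a motif typical of genes of the respiratory chain. The sequences are from RefSeq on GRCm38.p6, written 5′ to 3′ along the gene from 250 bases before the start, and capitals mark the motif matches.
Uqcr11 (chr10:80406772-80407071, minus strand): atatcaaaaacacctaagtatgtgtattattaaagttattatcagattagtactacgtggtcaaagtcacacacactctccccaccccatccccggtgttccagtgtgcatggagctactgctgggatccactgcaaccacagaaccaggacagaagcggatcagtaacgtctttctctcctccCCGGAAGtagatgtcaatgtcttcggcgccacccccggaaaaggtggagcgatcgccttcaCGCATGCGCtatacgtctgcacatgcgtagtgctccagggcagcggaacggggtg
Ndufs4 (chr13:114388045-114388344, minus strand): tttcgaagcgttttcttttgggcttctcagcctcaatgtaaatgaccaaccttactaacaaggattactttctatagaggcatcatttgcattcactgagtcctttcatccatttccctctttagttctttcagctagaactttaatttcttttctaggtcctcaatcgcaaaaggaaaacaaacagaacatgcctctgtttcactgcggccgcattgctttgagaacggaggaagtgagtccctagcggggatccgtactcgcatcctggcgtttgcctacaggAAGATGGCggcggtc
Sdhb (chr4:140961021-140961320, plus strand): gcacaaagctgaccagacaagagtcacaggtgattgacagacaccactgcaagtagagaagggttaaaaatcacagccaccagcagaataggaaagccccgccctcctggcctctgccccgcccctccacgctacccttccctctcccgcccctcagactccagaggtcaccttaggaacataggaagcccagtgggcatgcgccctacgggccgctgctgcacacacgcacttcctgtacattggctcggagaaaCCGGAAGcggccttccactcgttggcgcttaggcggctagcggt
In Uqcr11 the capitals mark an ETS match and, nearer to the start, a match to the NRF1 motif read on the other strand. In Ndufs4 they mark a YY1 match and in Sdhb an ETS match.

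NRF1, the ETS factor GABPA and YY1 are transcription factors known to bind promoters of many respiratory genes. RefSeq windows were found for 67 of the 83 genes, 72 windows in all, and searched on both strands. The NRF1 letters GCGCATGCG were in 8 of 72 windows (11.1%), against 1.75% of all 32851 promoter windows of the same length. The ETS letters CCGGAAG were in 17 (23.6%, against 8.86%), and the YY1 letters AAGATGGC in 9 (12.5%, against 2.75%). An ETS match can share the letters AAG with a YY1 match that follows it. In all, 29 genes held at least 1 of the motifs.

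The changes of genes with and without each match were set side by side, with no test. Measured members with the NRF1 letters had a median change of -0.24, against -0.22 without. With the ETS letters it was -0.23, against -0.22 without. For YY1 the medians were -0.33 over 9 genes with the letters and -0.21 over 53 genes without, and 8 of the 9 were negative. A match is a description of letters and not evidence of binding, and the letters were chosen after several forms had been tried.

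Complex I is the NADH dehydrogenase, with a matrix arm that takes electrons from NADH and a membrane arm that pumps protons. Of its 32 measured genes, 30 had negative changes, and 7 were lower at an unadjusted limma p under 0.05. These were Ndufs4, Ndufa6, Ndufa2, Ndufb10, Ndufb3, Ndufa12 and Ndufb9.

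Ndufs4, an accessory subunit of the NADH-binding arm whose loss causes mitochondrial disease, had signals of 501, 555 and 561 in WT and 349, 411 and 401 in FORKO ovaries. The highest FORKO array lay well under the lowest WT array. This gave a log2 change of -0.47 ± 0.15 (SE), with a limma adjusted p of 0.181, and of 0.0866 with the block. Its other 2 probe sets past the filter had overlapping groups. They read 34.7, 38.7 and 62.4 in WT against 20.0, 49.2 and 32.1 in FORKO (log2 change -0.40), and 84.9, 100.5 and 110.5 against 65.1, 94.4 and 139 (log2 change -0.042).

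Ndufb3, an accessory subunit of the membrane arm, had the lowest change of all members. Its signals were 1364, 1473 and 750.0 in WT and 839.8, 707 and 711 in FORKO arrays. WT replicate 3 lay within the FORKO range while the other WT arrays lay far above it, so the groups overlapped and the log2 change of -0.61 had a large SE of 0.24 (limma adjusted p = 0.279). Without WT replicate 3 the change was -0.91, and without WT replicate 2 it was -0.43.

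Ndufa6, an accessory subunit of the matrix arm, had signals of 553, 691 and 649 in WT and 414, 419 and 529 in FORKO arrays. Ndufa2, an accessory subunit of the NADH-binding arm, read 1876, 1972 and 1481 against 1225, 1304 and 1415, and Ndufb10, of the membrane arm, 353, 433 and 341 against 283, 254 and 286. In all of these the groups did not overlap, and the log2 changes were -0.47, -0.42 and -0.44, with limma adjusted p of 0.226, 0.228 and 0.252. They were singled out after their values were seen, as were the other members named beside the rule.

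Some of the electron-carrying core subunits are described next. Ndufs1, the largest iron-sulfur subunit, read 652, 770.0 and 567 in WT and 525, 546 and 481 in FORKO arrays, which did not overlap (log2 change -0.35 ± 0.16). Ndufv1, the subunit that binds NADH and flavin, read 1652, 1744 and 1611 against 1369, 1495 and 1559.6 (log2 change -0.18 ± 0.13). Ndufs7, an iron-sulfur subunit next to the ubiquinone site, read 1029, 1024 and 1022 against 1008, 636 and 774, with FORKO replicate 1 just under the WT arrays and the other FORKO arrays far below. None of these passed the limma test, with adjusted p of 0.366, 0.583 and 0.380. Other probe sets of Ndufs7 (log2 change -0.32) and Ndufv1 (-0.035 and -0.17) had overlapping groups. So did the iron-sulfur subunits Ndufv2 and Ndufs8, with log2 changes of -0.27 ± 0.20 and -0.30 ± 0.22.

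When complex I was divided into arms, a division made after values were seen, the 7 measured genes of the NADH-binding arm had a median change of -0.35 and groups that did not overlap in 5. The 7 measured genes of the ubiquinone-reducing arm had a median of -0.30 and 3 such genes. Ndufv3, also of the NADH-binding arm, was an exception to its neighbours. It read 691, 703 and 711 in WT and 702, 669 and 755 in FORKO arrays, a log2 change of 0.012 ± 0.14.

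The only other complex I gene with a positive change was Ndufb8, a membrane-arm subunit, at 314, 331 and 449 against 328, 341 and 497 (log2 change 0.083 ± 0.21). Ndufa1, a small membrane-arm subunit, read 4287, 4257 and 3381 against 4275, 3460.4 and 3965, so that the groups overlapped fully, and its change of -0.024 turned positive when arrays were scaled by quantiles (0.027) or spikes (0.15). Ndufa4 carries a complex I name, although its protein has since been assigned to complex IV. It read 679, 888 and 727 against 777, 561 and 636, with overlapping groups and a log2 change of -0.22 ± 0.18.

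Complex II, succinate dehydrogenase, is the only complex that is also an enzyme of the tricarboxylic acid cycle. All 4 of its genes had negative changes. Sdhb, the iron-sulfur subunit, read 1097, 1178 and 1159.8 in WT and 965, 739 and 802 in FORKO arrays, and the FORKO arrays all lay below. Sdhb differed by -0.46 ± 0.15 on the log2 scale (SE; limma adjusted p = 0.183). Sdha, the flavoprotein that forms the catalytic head with Sdhb, read 1905, 1729 and 1592 against 1831, 1581 and 1595. Those groups overlapped, and the log2 change was -0.061 ± 0.14, or 0.11 with the spike scaling. Another Sdha probe set, nearly as bright, read 1911, 1871 and 1294 against 1726, 1235 and 1224, also with overlap (log2 change -0.27). A dim one had a log2 change of -0.088.

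The membrane anchors of complex II lay between Sdhb and the probe set that stood for Sdha. Sdhc read 219, 204 and 242 in WT and 199, 183 and 192 in FORKO arrays, without overlap (log2 change -0.20 ± 0.16; limma adjusted p = 0.624). Sdhd read 552, 775 and 597 against 502, 622 and 503, with overlap (log2 change -0.23 ± 0.18; limma adjusted p = 0.616).

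Complex III, the cytochrome bc1 complex, had negative changes in all 9 genes. Uqcr11, a small accessory subunit, read 837, 845 and 657 in WT and 579, 407 and 560.3 in FORKO arrays. FORKO replicate 2 was lowest and no FORKO array reached the WT range, for a log2 change of -0.60 ± 0.19 (SE; limma adjusted p = 0.167, the lowest of all members). Uqcrfs1, the Rieske iron-sulfur protein, read 603, 796 and 851 against 383, 579 and 625. FORKO replicate 3 lay just above WT replicate 1, while within each replicate number the FORKO array was lower. Its log2 change was -0.52 ± 0.22 (limma adjusted p = 0.310), and the adjusted p with the block was 0.0712, the lowest of all members by that design.

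The other electron carrier of complex III, Cyc1 (cytochrome c1), read 1877, 2014 and 1679 in WT and 1673, 1441 and 1393 in FORKO arrays. WT replicate 3 and FORKO replicate 1 were almost equal, although the groups did not overlap (log2 change -0.30 ± 0.14; limma adjusted p = 0.352). The core proteins Uqcrc1 and Uqcrc2 had log2 changes of -0.28 ± 0.15 and -0.27 ± 0.13, again with no overlap. Uqcrb, which helps form the ubiquinone site, read 5881, 6718 and 5954 against 5394, 5048 and 5861, without overlap but by a small margin (log2 change -0.19 ± 0.11). Uqcr10 was dim and scattered, at 51.8, 49.7 and 57.9 against 27.8, 81.9 and 46.7, and FORKO replicate 2 was the highest array while replicate 1 was the lowest.

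Cycs, cytochrome c, carries electrons from complex III to complex IV and triggers apoptosis when released. It read 1883, 2102 and 2075 in WT and 1949.5, 1434 and 1955 in FORKO arrays. Only FORKO replicate 2 lay outside the WT range, and the log2 change was -0.20 ± 0.15 (limma adjusted p = 0.627).

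**Figure D3:**
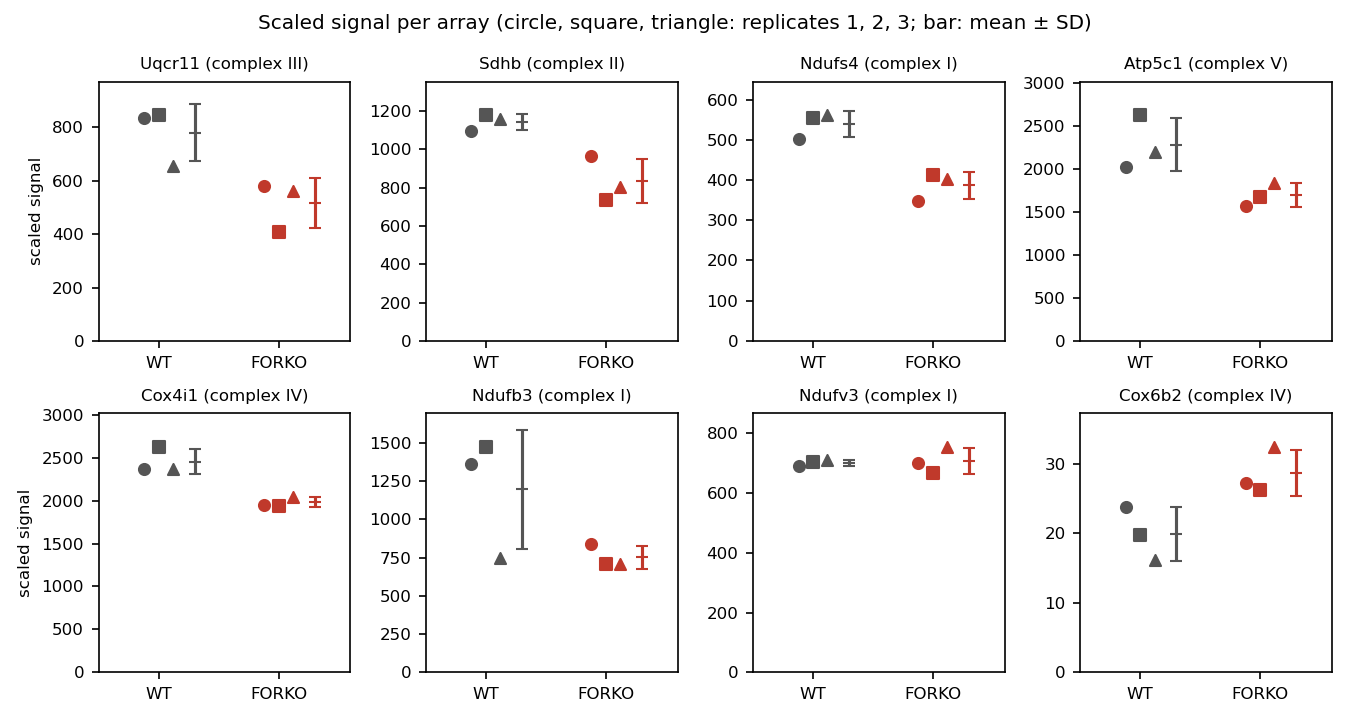
Scaled signals, on linear axes from 0, of 8 subunit genes in the 3 WT (grey) and 3 FORKO (red) arrays, with circle, square and triangle for replicates 1, 2 and 3 and bars for the mean ± SD. Uqcr11, Sdhb, Ndufs4, Atp5c1 and Cox4i1 have FORKO arrays below all WT arrays, Ndufb3 and Ndufv3 overlap, and Cox6b2 has the opposite order at signals of 16.1 to 32.4.

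Complex IV, cytochrome c oxidase, had negative changes in 11 of 12 measured genes. Cox4i1, the ubiquitous isoform of a regulatory subunit, read 2371, 2625 and 2366 in WT and 1953, 1939 and 2046 in FORKO arrays, with narrow groups that did not overlap. Its log2 change of -0.31 ± 0.12 had a limma adjusted p of 0.271. Cox5a, which binds Cox4i1 in the complex, read 1338, 1406 and 1247 against 993, 1046 and 1193, also without overlap (log2 change -0.31 ± 0.14). In Cox5b, a zinc-binding subunit, FORKO replicates 1 and 2 were below and replicate 3 within the WT range, at 3609, 4069.7 and 3579 against 2731, 3085 and 3702.

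The subunits Cox6a1, Cox6b1, Cox7a2 and the supercomplex factor Cox7a2l had log2 changes of -0.066, -0.074, -0.10 and -0.076, all with overlapping groups. In Cox6a1 and Cox6b1 FORKO replicate 3 was the highest of the 6 arrays. All 4 of these changes were positive with the spike scaling, at 0.11, 0.10, 0.069 and 0.099. Cox7c, a small subunit, had a larger change on dim signals, at 28.2, 31.5 and 30.5 in WT and 11.5, 30.4 and 22.7 in FORKO arrays (log2 change -0.46 ± 0.30), with FORKO replicate 2 inside the WT range. Cox8a, the ubiquitous isoform of another small subunit, read 102, 144 and 108 against 94.98, 118 and 94.7 with overlap (log2 change -0.18 ± 0.20).

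Several complex IV subunits exist as isoforms tied to a tissue. Cox6b2, known from testis, was the only measured member with all FORKO arrays above WT, at 23.8, 19.8 and 16.1 in WT and 27.2, 26.3 and 32.4 in FORKO arrays. These signals are close to the filter limit of 20.4, and the log2 change was 0.43 ± 0.24 (limma adjusted p = 0.458). The WT mean of 19.9 was under that limit, so Cox6b2 passed the filter through its FORKO arrays, with a mean of 28.6. Cox8c, another testis isoform, read 36.1, 29.4 and 17.0 against 20.4, 23.1 and 29.0 with overlap.

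Ratios between isoforms were compared in 6 pairs on the log2 scale. Cox6b1 over Cox6b2 was lower by 0.50 in FORKO arrays, from a mean of 6.76 ± 0.38 to 6.25 ± 0.22 (SD, n = 3 per group), but WT replicate 1 and FORKO replicate 3 were almost equal (exact two-sided permutation p = 0.2, adjusted p = 1). The other ratios, Cox7a2 over Cox7a2l, Cox8a over Cox8c and the 3 among Atp5g1, Atp5g2 and Atp5g3, differed by -0.064 to -0.0068, with exact p of 0.9 or 1 and adjusted p of 1. With 3 arrays per group the smallest possible exact p was 0.1. Cox6b2 entered its ratio only by passing the filter through its FORKO arrays, so the lower ratio is bound up with that filter.

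The isoforms of heart and skeletal muscle, Cox6a2, Cox7a1 and Cox8b, did not pass the filter, nor did Cox4i2, an isoform linked to low oxygen, or Cox7b2. Cox4i2 read 0.519, 1.25 and 1.52 in WT and 5.90, 14.8 and 2.22 in FORKO arrays, and Cox6a2 17.6, 19.1 and 13.1 against 17.7, 25.9 and 26.7. Ndufa4l2, a gene induced by low oxygen, was also under the filter at 16.1, 10.6 and 19.5 against 4.92, 11.1 and 2.32. The last members under the filter were Ndufb1 and Ndufb4, general subunits of complex I, and in both the groups overlapped. Ndufb1 read 12.9, 4.79 and 17.7 in WT and 5.47, 3.19 and 4.75 in FORKO arrays. No change is given for these 8 genes.

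Complex V had the smallest median change, and 15 of its 17 genes were negative. Its catalytic F1 head gave uneven values. Atp5c1, the rotating gamma subunit, read 2022, 2619.9 and 2197 in WT and 1568, 1675 and 1839.6 in FORKO arrays, without overlap, and its log2 change was -0.42 ± 0.14 (limma adjusted p = 0.206). Its second probe set went the other way, with signals of 179, 146 and 141 against 164, 188 and 161 and overlapping groups. Atp5a1 and Atp5b, the alpha and beta subunits that surround gamma, had log2 changes of -0.042 ± 0.13 and -0.21 ± 0.14.

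The peripheral stalk holds the head still while the rotor turns. Atp5j, its F6 subunit, read 2145, 1872 and 1888 in WT and 1304, 1578 and 1808 in FORKO arrays, and Atp5pb, its b subunit, 1625, 1844 and 1894 against 1335, 1339 and 1584. In both the groups did not overlap, and the log2 changes were -0.34 and -0.33 (limma adjusted p = 0.342 and 0.301). Atp5o, the subunit that joins stalk and head, read 428, 462 and 624 against 412, 594 and 618, with FORKO replicate 1 lowest and the rest mixed (log2 change 0.10 ± 0.21). With all of its probe sets averaged, the change of Atp5o was -0.060.

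The 3 genes of the c ring, the proton-driven rotor, encode the same mature protein. Their log2 changes were close to 0, at -0.053 ± 0.23 for Atp5g1, -0.046 ± 0.17 for Atp5g2 and -0.017 ± 0.12 for Atp5g3. Atp5g3 read 5066, 3991 and 4359.8 in WT and 4357, 4386 and 4453 in FORKO arrays, and the FORKO arrays were nearly equal and within the WT range. All 3 changes were positive with the spike scaling, at 0.12, 0.13 and 0.16.

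Among the membrane subunits of complex V, Atp5k, which supports the dimer of the enzyme, read 783, 704 and 1015 in WT and 443, 658 and 845 in FORKO arrays. FORKO replicate 1 was far below the rest and replicate 3 inside the WT range (log2 change -0.39 ± 0.24; limma adjusted p = 0.510). Without FORKO replicate 1 the change was -0.14, and without replicate 3 it was -0.61. Atp5md, another dimer subunit, read 399, 337 and 402 against 305, 409.6 and 445, with FORKO replicate 1 lowest and replicate 3 highest (log2 change 0.013 ± 0.18).

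Other probe sets of the same genes gave a mixed picture. Of 142 member probe sets past the filter, 120 were negative and 0 were called. In the 42 genes with more than 1 of them, 50 of the 67 other probe sets were negative, and 17 had the opposite sign to the one that stood for the gene, in 15 genes.

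Bright genes as a whole also had negative changes, of a smaller size. Among genes with a mean signal over 1000, all 36 members were negative with a median change of -0.21, and 66.0% of the 748 genes of that brightness were negative with a median of -0.090. At signals of 300 to 1000 the median was -0.30 for 28 members and -0.051 for 2163 genes.

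**Figure D4:**
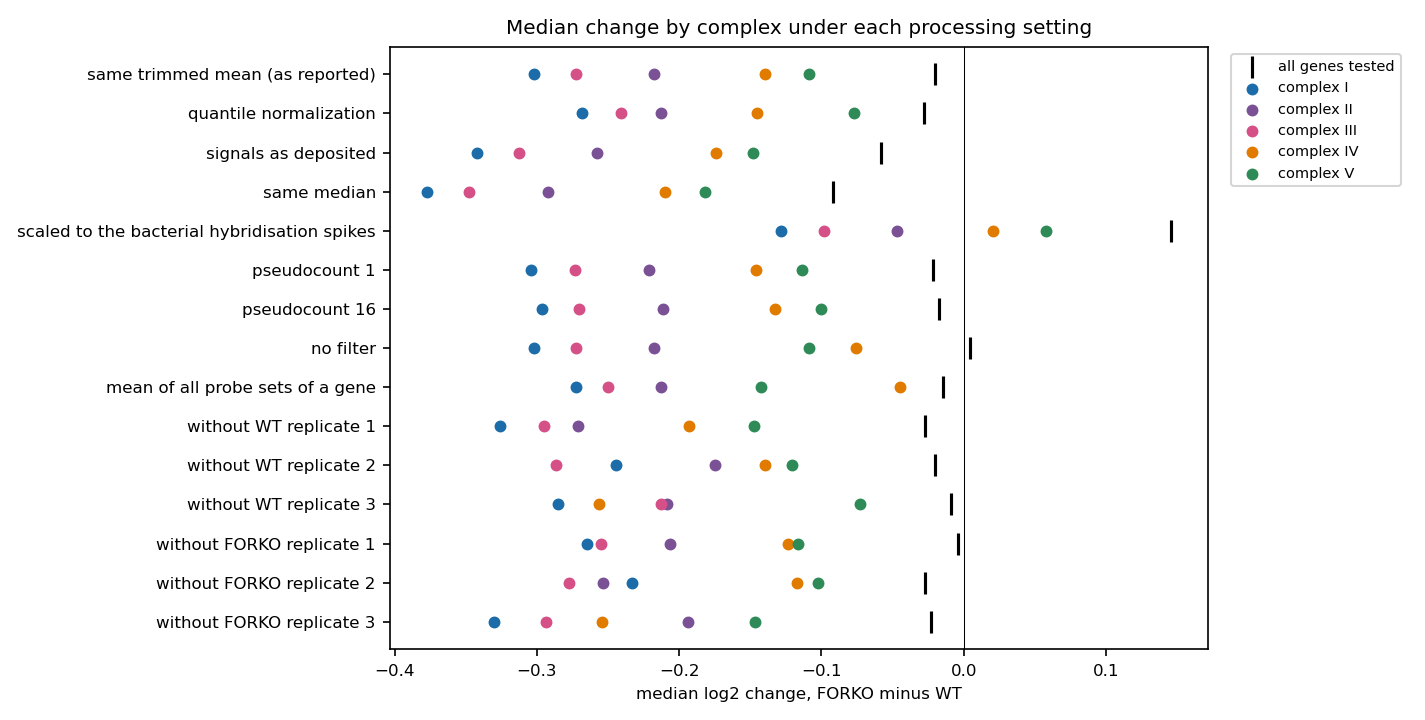
Median log2 change, FORKO minus WT, of the subunit genes of each complex (coloured points) and of all genes tested (black ticks), 1 row for each of the 15 settings with medians of their own. Every coloured point lies left of the tick of its row, and with the spike scaling the tick stands at 0.15 and complexes IV and V at 0.020 and 0.058.

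Genes that make, feed or surround the respiratory chain were read from fixed lists with the same fit. By limma's adjusted p, 0 of 76 mitochondrial ribosome genes were called (11 lower and 0 higher at an unadjusted p under 0.05), and 69 were negative with a median of -0.19. At that unadjusted p, 8.16% of all genes were lower and 8.64% higher, which is the background for this and the next lists. The largest changes were those of Mrpl41 (-0.74 ± 0.23) and Mrps11 (-0.73 ± 0.28). Of 16 genes of pyruvate dehydrogenase and the tricarboxylic acid cycle, 0 were called (5 lower at an unadjusted limma p under 0.05) and 14 were negative, with a median of -0.22. Fh1, fumarase, read 1191, 1386 and 1041 in WT and 846, 785 and 839.8 in FORKO arrays (log2 change -0.54 ± 0.15; limma adjusted p = 0.125), and Suclg1 had a log2 change of -0.45 ± 0.17.

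The list of assembly factors of the complexes gave a smaller median. Of 44 measured assembly factors, 31 were negative, with a median of -0.10, and 0 were called by limma (5 lower at an unadjusted p under 0.05, or 11.4%, near the share of all genes). Ndufaf2, an assembly factor of complex I, read 184, 259 and 193 in WT and 111, 119 and 117 in FORKO arrays without overlap (log2 change -0.82 ± 0.18; limma adjusted p = 0.0626), and passed with the replicate block (0.0377). Nubpl, which brings iron-sulfur clusters to complex I, had a log2 change of -0.66 ± 0.19 (limma adjusted p = 0.139).

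Of 22 genes for carriers, pores and import, 0 were called by limma (3 lower at an unadjusted p under 0.05, or 13.6%) and 18 were negative, with a median of -0.14. Phb2, a prohibitin of the inner membrane, had a log2 change of -0.55 ± 0.15 (limma adjusted p = 0.123), and Timm8b -0.52 ± 0.19. The only mitochondrially encoded subunit measured, ND5, had a log2 change of -0.20 ± 0.16 (limma adjusted p = 0.630).

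Among 15 regulators of mitochondrial biogenesis, 0 were called by limma (1 higher, Ppargc1a, at an unadjusted p under 0.05) and the median was -0.075. Ppargc1a, the coactivator that drives respiratory genes, read 19.1, 16.8 and 17.4 in WT and 48.3, 18.6 and 50.2 in FORKO arrays. FORKO replicates 1 and 3 were far above WT, and replicate 2 was close to it (log2 change 0.84 ± 0.33; limma adjusted p = 0.280). The WT mean of 17.7 was under the filter limit, so Ppargc1a passed the filter through its FORKO arrays, with a mean of 39.0. Its positive change and unadjusted p are therefore bound up with that filter. Gabpb1, a partner of GABPA, had a log2 change of -0.21 ± 0.25. Of 12 measured glycolysis genes, 0 were called by limma (2 lower and 1 higher at an unadjusted p under 0.05), 9 were negative and the median was -0.15. Ldhb, a lactate dehydrogenase subunit, had a log2 change of 0.54 ± 0.22 and Hk2, a hexokinase, of -0.50 ± 0.39.

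The list named for mitochondrial steroid synthesis, which holds Hsd3b1 beside Star, Fdx1 and Cyp11a1, had the lowest median of these lists. Hsd3b1 had the smallest change of them, at -0.38 ± 0.16. All 4 genes were negative, with a median of -0.59, and 1 passed the test. Fdx1, the ferredoxin that brings electrons to the side-chain cleavage enzyme, fell from 4816, 4595 and 4510.3 in WT to 2889.7, 2812 and 3278 in FORKO arrays (log2 change -0.63 ± 0.12; limma adjusted p = 0.0299). Star, which moves cholesterol into mitochondria, had a log2 change of -0.87 ± 0.31 with overlapping groups, and Cyp11a1, the cleavage enzyme, of -0.54 ± 0.12. With the block Fdx1 and Star passed, 2 of the 4. All 4 are also in the marker lists given below for luteal cells (Star, Fdx1 and Cyp11a1) or theca and interstitial cells (Hsd3b1), so these lists are not separate.

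**Figure D5:**
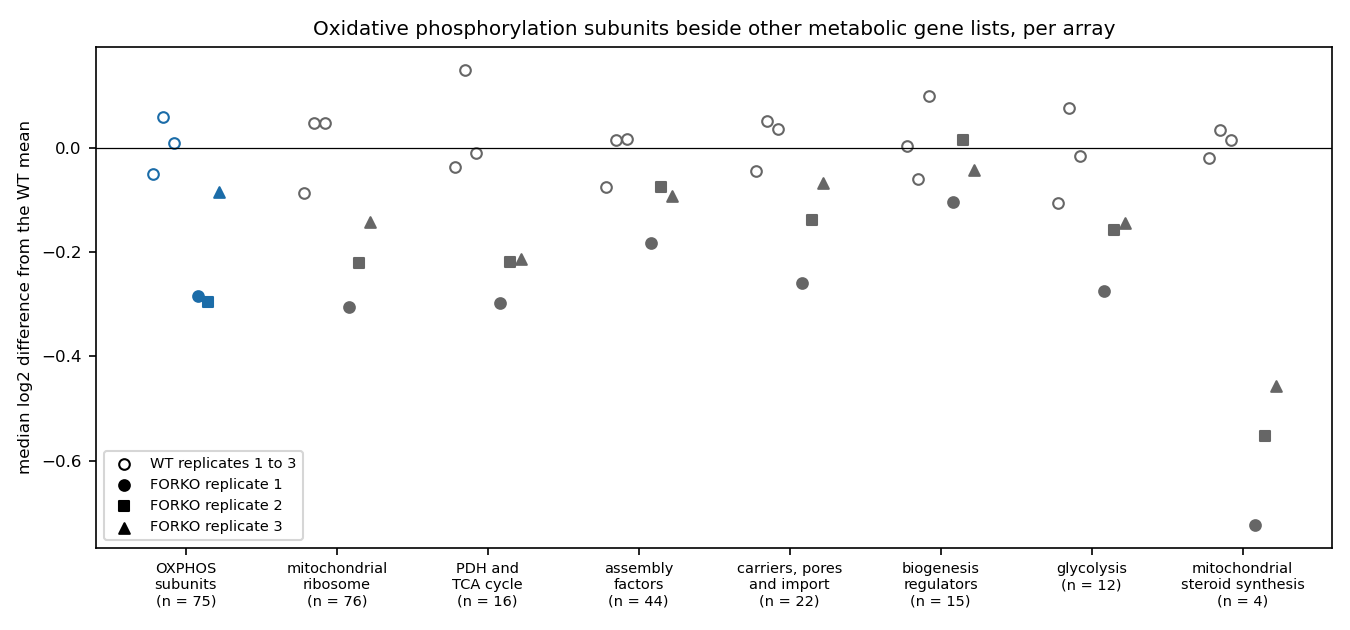
Median difference from the WT mean on the log2 scale (vertical axis) over the subunit genes (blue) and over 7 other gene lists (grey), in each WT array (open circles) and FORKO array (filled circle, square and triangle for replicates 1, 2 and 3). Mitochondrial steroid synthesis stands lowest, at -0.72, -0.55 and -0.46 in the FORKO arrays, and in the biogenesis regulators the groups overlap.

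Summed signals of cell type markers also differed between the groups. Sums are over all markers of a list on the array, and the counts given are those that passed the filter. Oocyte markers (9 of 10) summed to 1122 to 1327 in WT and 462 to 712 in FORKO ovaries, and theca and interstitial markers (3 of 3) to 7968 to 8386 and 6496 to 7599.7. Surface epithelium markers (8 of 8) summed to 752 to 849.8 in WT and 1375 to 2340.5 in FORKO arrays. Luteal markers (7 of 7) summed to 12691 to 12831 in WT and to 7458, 11864 and 12459.9 in FORKO arrays. In these 4 lists the sums of the groups did not overlap. Within the luteal list, Fdx1, Cyp11a1, Akr1c18 and Ptgfr were lower in all FORKO arrays, while Sfrp4 read 894, 581 and 844 in WT and 28.9, 3521 and 3295 in FORKO arrays. Star and Scarb1 also had overlapping groups, with log2 changes of -0.87 and 0.059. In the theca and interstitial list only Hsd3b1, the brightest, was lower in all FORKO arrays. Ephx2 overlapped, and so did Cyp17a1, at 1187, 173 and 604 in WT and 2477, 307 and 556 in FORKO arrays (log2 change 0.58 ± 0.78).

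In other lists the sum of FORKO replicate 1 lay outside the range of all other arrays. Granulosa markers (11 of 12) summed to 17718 to 23081.5 in WT arrays, 8793 in FORKO replicate 1 and up to 22002 in the other FORKO arrays. Within this list Fshr, Nr5a2 and Inha were lower in all FORKO arrays (log2 changes -2.90, -1.87 and -0.62). Foxl2 and Amhr2 were higher in all FORKO arrays (0.31 and 0.66), and the other measured markers had overlapping groups. Smooth muscle markers (5 of 6) summed to 2295 to 2705 in WT and 1197 to 2732 in FORKO arrays, again lowest in replicate 1. Acta2 was the brightest of them. Cnn1, Actg2 and Myh11 were lower in all FORKO arrays (log2 changes -1.43, -1.03 and -0.50), and Actg2 passed the limma test (adjusted p = 0.0438). Acta2 and Tagln had overlapping groups, with log2 changes of -0.14 and -0.73.

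Immune markers were highest in the same array. Macrophage markers (8 of 9) summed to 2065 to 2165 in WT and 1998 to 5181 in FORKO arrays, and lymphocyte markers (4 of 7) to 319 to 428 and 398 to 1805. Skeletal and cardiac muscle markers (0 of 7) were all under the filter, as were Ucp1, Cidea and Adipoq of fat cells. In the other lists the markers under the filter were Amh, Bmp15, Itgam, Des, Cd2, Cd3e and Cd79a. The part of these markers' cells in the members' values was not tested.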

How the data were processed

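The submitters' processing notes name MAS5, and the deposited intensities are on a linear scale with a value for each probe set. What scaling target was used is not stated in the labels. Here every array was brought to a common mean, computed with 2% trimmed from either end, and log2(signal + 5.73) was taken, 5.73 being the pooled 25th percentile. The 64 control probe sets and those with a mean under 20.4, the median of all means, were left out. The other 22506 probe sets were tested in R 4.3.3 with limma 3.58.1 (lmFit, eBayes with an intensity trend, two-sided, Benjamini-Hochberg at 0.05), and 372 passed. The fit was tested on simulated data. Counts per gene are over 11199 genes. Figures were drawn with matplotlib 3.10.9.

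Genes were named from the platform annotation where it gave 1 symbol (34958 probe sets; 932 had several and 9211 none listed), and 9 probe sets that paired a member with other symbols were left out. The members, gene lists and tests were chosen with earlier results of these data known. Named were Fshr, in each complex the 2 largest changes in either direction and the member with the highest mean signal, all members of complexes with 4 or fewer, all isoform sets, and in each list the genes that passed or the 2 largest changes. After group means were removed, arrays that carry the same replicate number correlated at 0.195, 0.134 and 0.358. As all exceed 0.1, a fit with the replicate number as a block was added, a decision that rests on these data and on no label. The main fit has genotype only, and SEs and adjusted p are from it unless the block is named. No 2 arrays held identical values. The alternatives covered the scaling, pseudocount, filter, variance model, probe set choice, replicate block and each array left out; the members' median relative to all genes was added after seeing the data.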

Additional observations from a re-analysis of the deposited data

How the results depend on the processing

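No setting gave a called subunit gene (16 of 16 alternatives), and the members' median minus that of all genes, an alternative chosen after seeing the data, moved by less than the replicate spread in 16 of 16. Of these 16, the block and the variance model leave that difference as it is by construction. Settings that only rescale whole arrays could hardly move it. Scaling to the bacterial spikes moved most values. The median of all genes became 0.15, the members' -0.046, and those of complexes I to V -0.13, -0.047, -0.098, 0.020 and 0.058; groups did not overlap in 5 members, and 589 probe sets were called, 84% of them higher, against 64% with the common trimmed mean and 50.6% with equal array medians. Named genes that turned positive there were Atp5g1 (0.12), Atp5g2 (0.13), Atp5g3 (0.16), Cox6a1 (0.11), Cox6b1 (0.10), Cox7a2 (0.069), Cox7a2l (0.099), Cox8c (0.030), Ndufa1 (0.15) and Sdha (0.11). The complex II median was -0.26 with signals as deposited and -0.29 with equal array medians, where Atp5md (-0.027 and -0.062) and Ndufv3 (-0.029 and -0.064) turned negative. Quantile normalization turned Atp5g3 (0.063) and Ndufa1 (0.027), and averaging all probe sets of a gene turned Atp5o (-0.060), Cox6b1 (0.0080), Cox7a2l (0.072) and Cox8a (0.033). Without the filter 221 probe sets were called, and with the replicate block 691 in place of 372; the block changed no call of a subunit gene. With each array left out in turn, 62 (without WT replicate 2) to 864 (without FORKO replicate 1) probe sets were called, 29 to 43 members did not overlap, and the medians were -0.27 to -0.17 in complex II and -0.26 to -0.12 in complex IV. Named genes that crossed 0 ranged from -0.18 to 0.16 (Atp5g1), -0.17 to 0.024 (Atp5g2), -0.096 to 0.076 (Atp5g3), -0.096 to 0.17 (Atp5md), -0.012 to 0.28 (Atp5o), -0.23 to 0.064 (Cox6a1), -0.28 to 0.038 (Cox6b1), -0.30 to 0.049 (Cox7a2), -0.28 to 0.057 (Cox7a2l), -0.37 to 0.072 (Cox8c), -0.14 to 0.059 (Ndufa1), -0.10 to 0.24 (Ndufb8), -0.035 to 0.052 (Ndufv3) and -0.13 to 0.0053 (Sdha). Of 496 values of named genes under alternatives, 449 kept their sign. Those under the block and the variance model kept it by construction. Of 60 values of isoform ratios, 13 turned sign, in 5 of the 6 pairs, and with a smallest possible exact p of 0.1 none could pass. The cause of these shifts was not tested. Dim members such as Cox6b2, Cox7c and Cox8c, near the filter limit of 20.4, are the least reliable.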
